A study of Zea mays with 2 samples.

Results

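The 6 genes described here are alpha zein genes of maize (Zea mays) that lie outside the z1A subfamily, chosen by their identifiers from a given list, and all 6 are among the 41406 genes of the deposited tables. By that list 4 of them encode 19-kDa zeins, and their identifiers come from a pair of sequenced genomic clones, AF546187 and AF546188. The other 2, GRMZM2G044625 and GRMZM2G044152, are 22-kDa zeins and carry the symbols z1C1_4 and z1C1_8 in a RefSeq gene table. The deposited descriptions put 3 of the first 4 in the 19-kDa size class and GRMZM2G044625 in the 22-kDa class by name, and give no size for AF546188.1_FG005 (Zein-alpha A20) and GRMZM2G044152 (Zein-alpha ZA1/M1). The study sequenced endosperm mRNA of kernels at 12 days after pollination, in 1 library of genotype dek40 and 1 library of the wild type. The sample labels name dek40 while the series title names dek41, so the mutant library is called here the library labelled dek40, or the dek40 library. The sources used here do not give the kind of allele, the background line or the number of kernels pooled.

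Zeins are the prolamin storage proteins of the maize endosperm. They are made on the rough endoplasmic reticulum and packed inside it into protein bodies, where gamma and beta zeins form the shell and alpha zeins fill the core. Alpha zeins are encoded by a large family of near-identical genes in tandem clusters, grouped by the size of the protein, and most of their expression is in the starchy endosperm during grain filling. The transcription factor Opaque-2 is known above all as an activator of the 22-kDa genes, and the Dof factor PBF binds the prolamin box of zein promoters.

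Levels are given as deposited, in FPKM for the wild type and RPKM for the dek40 library, both per length of the gene. The values imply a total of 15669149 reads or read pairs in the wild type and of 14218436 in the dek40 library, up to a factor common to both. Over genes that reached 1 in each library, the dek40 value as deposited was 1.34 times the wild-type value at the median. Log2 ratios, dek40 over wild type, are therefore relative to that median and use a pseudocount of 1. A difference of 2-fold or more on this scale, at a level of 1 or more in a library, was called lower or higher. Each genotype has 1 library, so replicate spread could not be measured and nothing was tested, and each bracketed range is a 95% interval for counting error only. GRMZM2G019538, taken here as the Dek40 gene, carries the symbol LOC100278713 in the gene table. It was at 19.6 FPKM and 32.0 RPKM (log2 ratio 0.28, from -0.02 to 0.60). With the kind of allele unknown, its level does not check the label. All 5 endosperm markers (sh2, bt2, bt1, o2 and gz27) were detected and lower, with summed levels of 50800 FPKM and 21041 RPKM. Most of these sums came from gz27, itself a zein, at 42888 FPKM and 17551 RPKM. The summed level of 5 embryo markers was 709 FPKM and 505 RPKM, of which ole16 gave 566 FPKM and 395 RPKM. Of the 5, 2 were lower: ole17, and GRMZM2G410152 with at least 8 wild-type and 2 dek40 reads (-5.55 to 0.04). Globulin-1 had a positive ratio, 0.31 (0.18 to 0.45). The 6 chlorophyll-binding protein genes, a sign of green maternal tissue, summed to 12.6 FPKM and 12.8 RPKM. Of these 1 was lower, 1 was higher and 2 did not reach a level of 1. The 3 markers of the basal transfer layer were all lower and summed to 863 FPKM and 208 RPKM. Of 3 aleurone markers 1 was higher (AL-9) and 1 lower (Nkd1), with sums of 2765 FPKM and 7898 RPKM. AL-9 alone gave 2607 FPKM and 7778 RPKM of these sums. None of the markers was at 0, but no gene of either library was, so this says nothing of tissue content. The part of any of these tissues in the zein values was not tested. In such bulk tissue, fewer cells that express a gene and less of its RNA per cell cannot be told apart.

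The AF546188 pair of 19-kDa genes held the most abundant transcripts of the 6. AF546188.1_FG005, Zein-alpha A20, had a level of 23838 FPKM in wild-type endosperm and of 3524 RPKM in dek40. Its level was the 9th highest of all genes in the wild type and the 20th highest in the dek40 library, so it remained among the most abundant transcripts of both. The log2 ratio was -3.18 (-3.19 to -3.16), which is 9.05-fold lower after scaling and 6.76-fold lower as deposited. AF546188.1_FG007, Zein-alpha 19C2, stood at 20506 FPKM and 2985 RPKM, with ranks of 10 and 23. Its log2 ratio was -3.20 (-3.22 to -3.18). Both genes of the clone were thus lower by nearly the same factor, and their difference in log2 ratio, 0.022 (-0.001 to 0.046), had an interval that included 0. At least 269308 and 231669 wild-type reads lay behind these values, and at least 36124 and 30598 reads of the dek40 library.

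The 22-kDa genes differed in level by a factor of about 4 and had close to the same ratio. GRMZM2G044625, Zein-alpha PZ22.3, had 18019 FPKM in wild-type endosperm and 2565 RPKM in dek40, with ranks of 13 and 26 among all genes. The log2 ratio was -3.23 (-3.25 to -3.22), or 9.40-fold lower. GRMZM2G044152, Zein-alpha ZA1/M1, was at 4372 FPKM and 625 RPKM, and its rank went from 32 to 250. Its log2 ratio of -3.22 (-3.28 to -3.18) was close to that of GRMZM2G044625, and the difference of the latter from it, -0.01 (-0.06 to 0.05), was within counting error. GRMZM2G044625 was 4.12 times the level of GRMZM2G044152 in the wild type and 4.10 times in the dek40 library, so the balance between these genes of the z1C1 cluster was nearly the same in both libraries.

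The AF546187 pair, described as 19kD alpha zein D1 and Zein-alpha 19D1, was the least abundant and had the lowest ratios. AF546187.1_FG001 had 2667 FPKM in wild-type endosperm and 295 RPKM in dek40, and AF546187.1_FG007 at 1659 FPKM and 203 RPKM. Their ranks among all genes were 45 and 66 in the wild type and 662 and 968 in the dek40 library. The log2 ratio of AF546187.1_FG001 was -3.59 (-3.65 to -3.54), which is 12.1-fold lower after scaling, and that of AF546187.1_FG007 was -3.44 (-3.52 to -3.39), 10.9-fold lower. Within this pair the log2 ratios differed by -0.15 (-0.23 to -0.06), more than counting error alone.

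**Figure D1:**
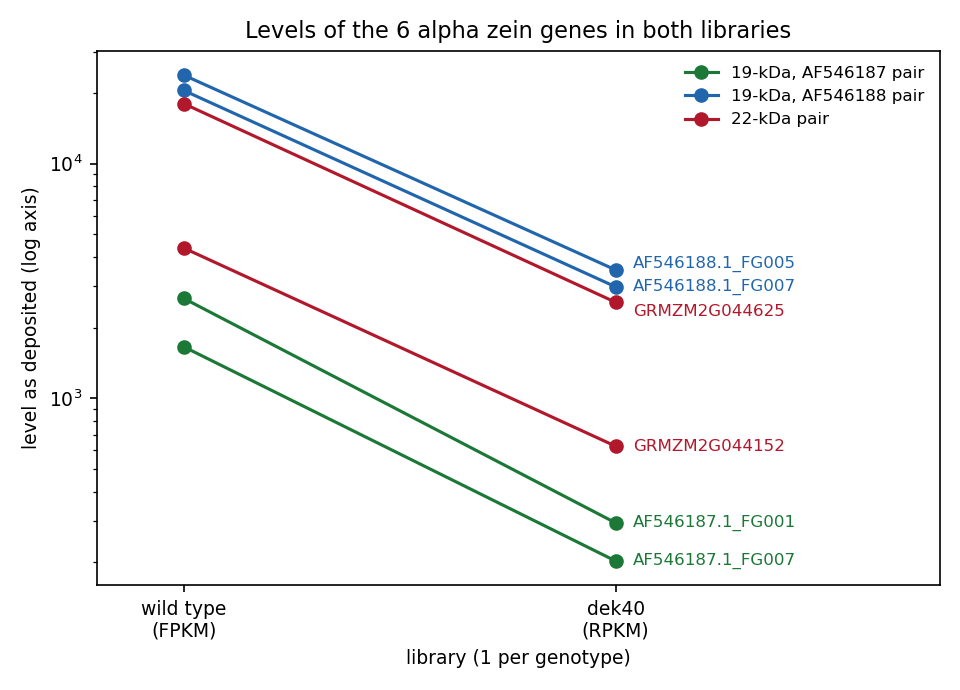
Level as deposited (log axis; FPKM for the wild type, RPKM for dek40) of each of the 6 genes in the 2 libraries, 1 point per gene and library, joined by lines. The order of the 6 genes is the same in both libraries, from AF546188.1_FG005 (23838 FPKM, 3524 RPKM) down to AF546187.1_FG007 (1659 FPKM, 203 RPKM).

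All 6 genes were lower by 2-fold or more in the dek40 library, and all 6 were also lower by 4-fold or more. Of the 28178 genes that reached a level of 1 in a library, 4.99% were lower by 2-fold and 0.791% by 4-fold, while 6.33% were higher by 2-fold. With the values as deposited all 6 were again lower by more than 4-fold, against 2.65% of genes lower by 2-fold and 0.552% by 4-fold. The median log2 ratio of the 6 genes was -3.23 (range -3.59 to -3.18), against 0.02 over all 28178 genes. Genes abundant in the wild type were often lower. Of the 119 genes at 1000 FPKM or more there, 52.9% were lower by 2-fold and 28.6% by 4-fold. Choosing them by the wild-type level alone favours lower ratios, because genes abundant only in the dek40 library are left out. Without the zeins and the other genes of the clones, 93 such abundant genes were left, of which 39.8% were lower by 2-fold and 9.68% by 4-fold, with a median log2 ratio of -0.50. In the order of all log2 ratios from the lowest, AF546187.1_FG001 was the 14th and AF546187.1_FG007 the 25th. The other 4 genes were at places 36, 37, 40 and 43.

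**Figure D2:**
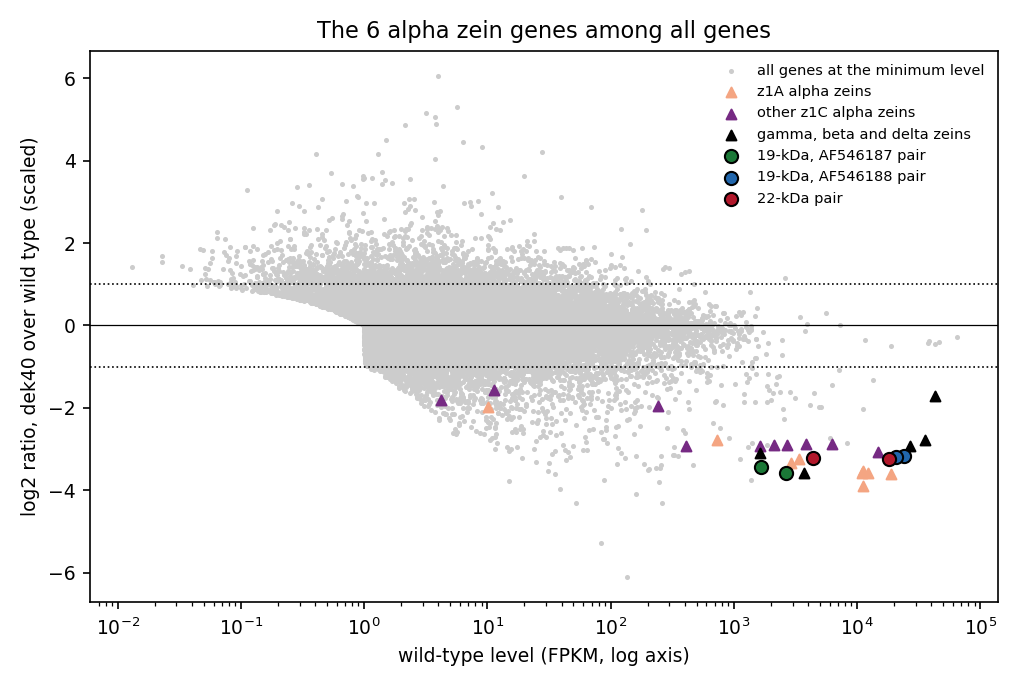
Log2 ratio of dek40 over wild type after scaling (y axis) against the wild-type level in FPKM (x axis, log scale) for 28178 genes in grey, with zein classes as triangles and the 6 genes as outlined circles. Dotted lines mark 2-fold; the 6 circles lie between -3.59 and -3.18, at the abundant end of the plot.

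The study design sets mutant against wild type, and the ratio of 19-kDa to 22-kDa levels within each library can be compared without any scaling between libraries. The 4 genes of the 19-kDa class summed to 48671 FPKM in wild-type endosperm and 7006 RPKM in dek40, a sum 9.30-fold lower after scaling. The 22-kDa genes summed to 22390 FPKM and 3190 RPKM, 9.39-fold lower. The 19-kDa sum was therefore 2.17 times the 22-kDa sum in the wild type (2.16 to 2.18) and 2.196 times in the dek40 library (2.17 to 2.23). The log2 change of this class ratio was 0.01, and its interval of -0.01 to 0.04 included 0. The listed genes of each class, as summed levels, were lower by closely similar factors, although the interval covers counting error and no difference between plants. This did not hold with classes taken from the deposited descriptions. Those add z1A and other z1C genes and leave out AF546188.1_FG005 and GRMZM2G044152. The log2 change was then -0.31 (-0.33 to -0.29).

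The summed ratio follows the AF546188 genes, which made up 91.1% of the 19-kDa sum in the wild type and 92.9% in the dek40 library. The AF546188 pair alone was 1.98 times the 22-kDa pair in the wild type and 2.04 times in the dek40 library, a log2 change of 0.04 (0.02 to 0.06). The AF546187 pair alone was 0.193 times the 22-kDa pair in the wild type and 0.156 times in the dek40 library, a log2 change of -0.31 (-0.35 to -0.26). Inside the 19-kDa class the AF546188 pair stood at 10.2 times the AF546187 pair in the wild type and 13.1 times in the dek40 library. That is a log2 change of 0.35 (0.31 to 0.40), larger than the 0.01 between the summed size classes of the listed genes. With each gene given equal weight, by the geometric mean, the 19-kDa to 22-kDa ratio was 0.768 in the wild type and 0.703 in the dek40 library, a log2 change of -0.13 in place of 0.01.

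**Figure D3:**
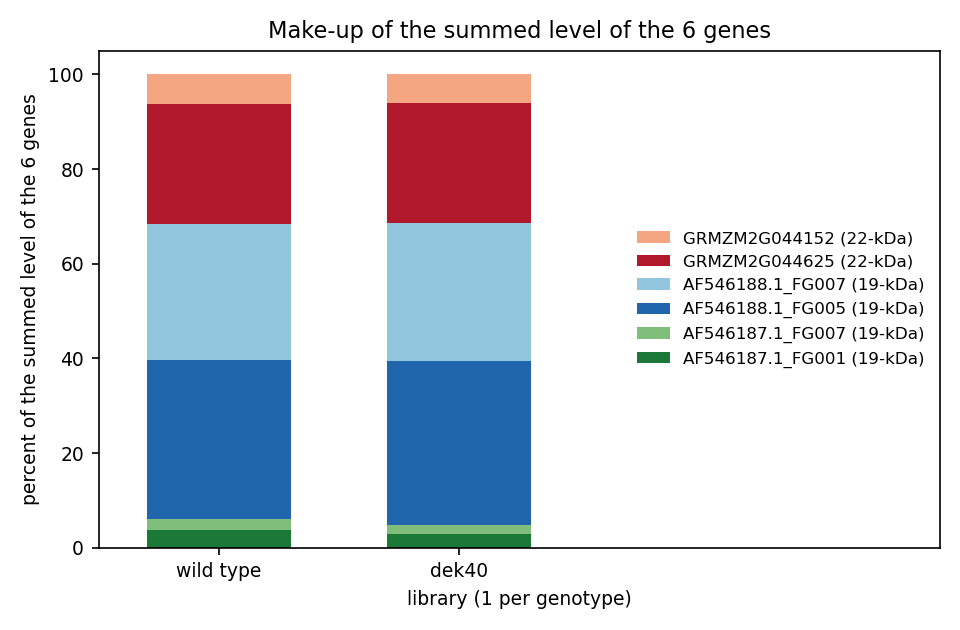
Share of the summed level of the 6 genes held by each gene, in percent, in the wild-type and the dek40 library, as stacked bars that start at 0. The 19-kDa genes hold 68.5% and 68.7%, while the AF546187 pair (the green segments) goes from 6.09% to 4.88%.

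Among the 15 pairs of the 6 genes, the log2 ratios differed by more than counting error in 11 and within it in 4. All 8 pairs that set a gene of AF546187 against a gene of AF546188 or of the 22-kDa class were among the 11. Of these, the widest was AF546187.1_FG001 against AF546188.1_FG005, at -0.42 (-0.48 to -0.36). In the 19-kDa to 22-kDa pairs with AF546188 genes, AF546188.1_FG005 was above GRMZM2G044625 by 0.05 (0.03 to 0.08) and AF546188.1_FG007 by 0.03 (0.01 to 0.06). Their differences from GRMZM2G044152, 0.05 (-0.01 to 0.10) and 0.03 (-0.03 to 0.08), had intervals that included 0. By these ratios 4 genes of both size classes lay within 0.06 of each other and the AF546187 genes lay below them. In level, by contrast, every neighbour in the order of the 6 genes was apart by more than counting error in both libraries: the closest in the wild type were AF546188.1_FG007 (20423 to 20590 FPKM) and GRMZM2G044625 (17945 to 18094 FPKM). Alpha zein copies share reads, and the sources used here do not say how reads with several matches were counted, so the value of any single copy is uncertain. The class sums leave out other alpha zein copies that may share reads with these genes.

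The z1A subfamily, the other large group of 19-kDa zeins, had 9 measured genes, all lower, with a median log2 ratio of -3.53. The lowest was GRMZM2G353268 (z1A1_7) at -3.89 and the highest GRMZM2G018193 (z1A1_8) at -1.97, the latter at 10.1 FPKM in the wild type. The AF546187 genes, at -3.59 and -3.44, lay near the z1A median. The AF546188 genes, at -3.18 and -3.20, lay above 7 of the 9 z1A genes. Summed, the z1A genes had 71608 FPKM in wild-type endosperm and 7970 RPKM in dek40, 12.0-fold lower after scaling, against 9.33-fold for the sum of the 6 genes. In the wild type the 6 genes and the z1A genes had nearly equal sums, 71061 and 71608 FPKM, while in the dek40 library the 6 genes had the higher sum, 10196 against 7970 RPKM.

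Beside the listed 22-kDa genes, 10 more genes carry z1C symbols in the gene table. All 10 were lower, 7 of them by 4-fold or more. Their median log2 ratio was -2.89, and all 10 lay above both listed 22-kDa genes. The lowest was GRMZM2G397687 (z1C2, floury2), known for a dominant signal peptide mutation that gives floury kernels, at 14691 FPKM and 2327 RPKM and a log2 ratio of -3.08. The highest was GRMZM2G088273 (z1C1_11) at -1.56, a gene at 11.3 FPKM in the wild type. The 6 of these genes at 1000 FPKM or more in the wild type had ratios between -3.08 and -2.87. Against GRMZM2G044625 the difference was 0.15 (0.13 to 0.18) for GRMZM2G397687 and 0.36 (0.33 to 0.39) for GRMZM2G160739 (z1C1_19), at 6235 FPKM and 1136 RPKM. Set against GRMZM2G044625 and against GRMZM2G044152 in turn, 9 of the 10 genes had a ratio higher by more than counting error in each case. The exception was GRMZM2G535393 (z1C1_13), with at least 7 wild-type reads and at least 1 read of the dek40 library. The z1B genes matched by identifier were 3, all lower and all under 100 FPKM. Their log2 ratios ran from -2.83 (-4.27 to -1.90) for GRMZM2G025763 to -1.96 (-3.44 to -1.37) for GRMZM2G309832. At least 52 and 46 wild-type reads and at least 8 and 11 dek40 reads lay behind these, so their order is uncertain. The listed 19-kDa genes have no symbol in the gene table, so whether any of them is a z1B gene is not known here.

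**Figure D4:**
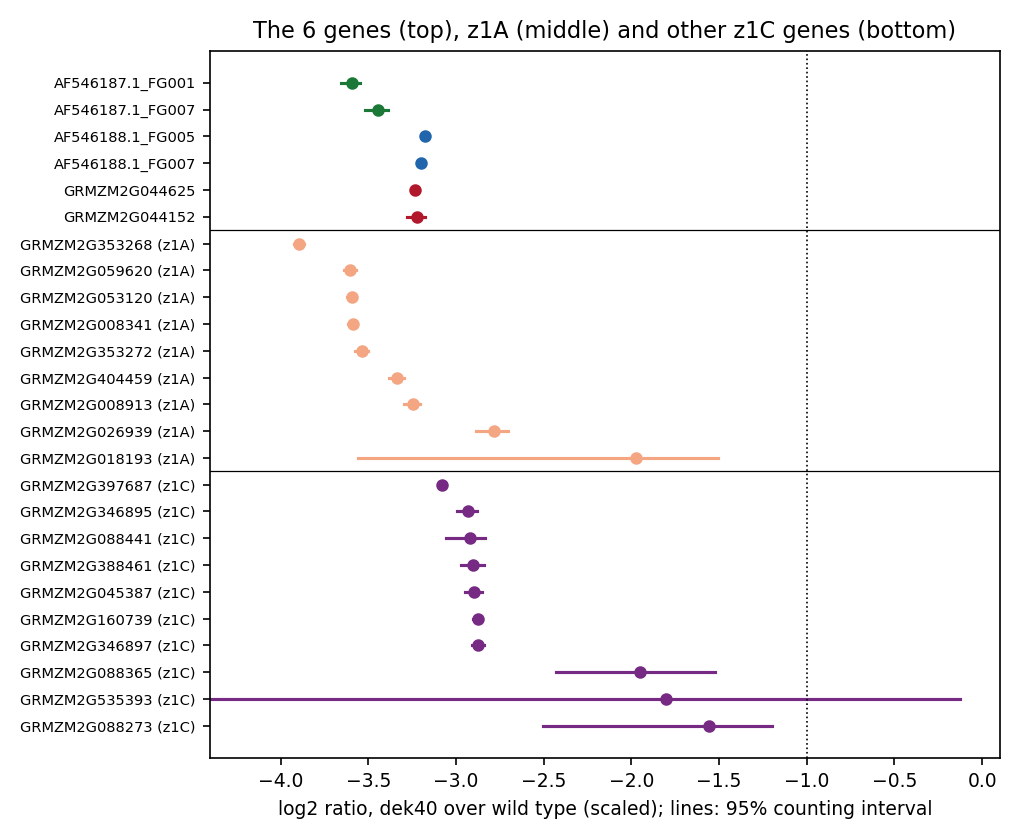
Log2 ratio of dek40 over wild type after scaling for the 6 genes, 9 z1A genes and 10 other z1C genes, with lines for the 95% counting interval (the line of GRMZM2G535393 runs off the left edge, to -8.58). The AF546187 genes lie near the middle of the z1A genes, and the 10 other z1C genes all lie to the right of GRMZM2G044625 and GRMZM2G044152.

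The identifiers of the clones hold other genes, which the files leave without a description that names a zein. Clone AF546188 had 5 such genes, of which 4 reached a level of 1 and all 4 were lower. AF546188.1_FG001 had 8207 FPKM in wild-type endosperm and 1521 RPKM in dek40, with a ratio on the log2 scale of -2.85 (-2.88 to -2.83). AF546188.1_FG002 was at 6049 FPKM and 1222 RPKM (-2.73), AF546188.1_FG006 at 919 FPKM and 184 RPKM (-2.73) and AF546188.1_FG003 at 135 FPKM and 35.5 RPKM (-2.30). These 4 had ratios closer to 0 than the 2 listed genes of the clone. Clone AF546187 had 7 other genes, of which 3 reached a level of 1 and 2 were lower. Those were AF546187.1_FG009 at 88.4 FPKM and 7.58 RPKM, with a log2 ratio of -3.74 (-4.34 to -3.61), and AF546187.1_FG002 at 14.9 FPKM and 1.23 RPKM, with -3.05 (-5.51 to -2.83). The third, AF546187.1_FG012, was at 2.37 FPKM and 3.48 RPKM, or 0.10 on the log2 scale (-1.04 to 1.35).

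Together the 6 genes held 4.93% of the FPKM summed over all wild-type genes and 0.736% of the RPKM summed over all genes in dek40. Of the 33 genes named as zeins by the files or the gene table, they held 24.9% of the summed level in the wild type and 19.01% in the dek40 library. Of the 28 alpha zeins alone they held 40.7% and 43.1%. Their share of all zeins was thus smaller in the dek40 library and their share of the alpha zeins was larger. The 5 gamma, beta and delta zeins were all lower, with a median log2 ratio of -2.93 and a 4.96-fold lower sum after scaling, against 9.33-fold for the 6 genes. Among them gz27 (GRMZM2G138727), a gamma zein of the protein body shell, had the highest ratio at -1.71, and gz50 (GRMZM2G138689) the lowest at -3.59.

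Of the regulators of zein genes, Opaque-2 (GRMZM2G015534) had 310 FPKM in wild-type endosperm and 161 RPKM in dek40, which on the log2 scale is -1.36 (-1.42 to -1.30). PBF (GRMZM2G146283) was at 75.8 FPKM and 43.0 RPKM, with -1.21. As deposited both were under 2-fold, at -0.94 and -0.80. The Opaque-2 partner ohp2 (GRMZM2G007063) was at 10.7 FPKM and 16.3 RPKM (0.18), and ohp1 (GRMZM2G016150) stayed below a level of 1 after scaling. With a second identifier of PBF (GRMZM2G146267, -0.16) that made 2 of 4 regulator entries lower, each by a smaller factor than any of the 6 zein genes. Among 16 genes of protein folding and disposal in the endoplasmic reticulum, where zeins are made, 1 was lower and 2 were higher. Their median log2 ratio was -0.34, and the single genes ranged from -1.54 to 1.51. The most abundant of them, a protein disulfide isomerase (GRMZM2G091481), had 1416 FPKM and 1022 RPKM, or -0.89 on the log2 scale.

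Outside the zeins, 1167 described genes stood at 100 FPKM or more in the wild type, and 13 of them were lower by 8-fold or more. The 5 of the 1167 whose log2 ratio was nearest to the median of the 6 zein genes, over the 2 libraries, included BETL4 (GRMZM2G073290) at -3.22 and BETL3 (GRMZM2G175976) at -3.09, both named for the basal transfer layer. The others were a gene described as a putative defensin (GRMZM2G091445, -3.15), a cysteine-rich protein LCR70 (GRMZM2G179248, -3.16) and an uncharacterized protein (GRMZM2G132162, -3.18). Their wild-type levels, 122 to 353 FPKM, were below that of the least abundant of the 6 zein genes.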

How the data were processed

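The submitters' processing notes name Bowtie2 2.1.0 and the genome build B73 RefGen_v3, and give no counting method or gene annotation. The authors deposited 1 RPKM value per gene for the dek40 library and 1 FPKM value per gene for the wild type, per the file headers. Whether both columns hold the same unit is not known. No gene had a value of 0, so genes read in 1 library alone are not analysed here. The ratio of the deposited values was a fraction of whole numbers times a constant, 1.1020, for all 41406 genes within a relative tolerance of 1e-12. The library totals follow from that constant up to a common factor. The smallest whole reads that give each ratio and a whole-number length are lower bounds of the reads.

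The dek40 values were multiplied by 0.747, so that the median ratio of the 25115 genes at 1 or more in both libraries is 1. Intervals of a log2 ratio are exact Clopper-Pearson intervals without the pseudocount, and those of a level are exact Poisson. Intervals of differences and class ratios use the normal approximation on the log scale. All cover counting error only, and the true reads would give intervals no wider. Reads without molecular identifiers are not independent molecules.

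Members, lists and markers were chosen with earlier results of these data known. The rule for named genes took the 6 genes, the highest and lowest ratio of each other zein class, the regulators, and the 5 described non-zein genes at 100 FPKM or more nearest to the median. Genes named beyond it (the clone genes, GRMZM2G160739, GRMZM2G535393 and GRMZM2G091481) were chosen after their values were seen. Names came from the deposited descriptions and a RefSeq gene table, which matched 2 of the 6 identifiers. Its assembly, Zm-B73-REFERENCE-NAM-5.0, differs from the build of the files, and coordinates were left out. A planned search for promoter motifs was not run here, and no sequences are shown. The code was tested on simulated data. Python 3.11.15, pandas 2.3.3 and scipy 1.17.1 were used.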

Additional observations from a re-analysis of the deposited data

How the results depend on the processing

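No paired analysis was possible because each genotype has 1 library. For the same reason no replicate could be left out. Of 215 values under alternatives, 176 stayed within the interval or range of the reported value (for counts, within 1.5 times), 39 did not, and 0 changed the sign of a ratio past 2-fold. All 6 genes were lower by 2-fold or more under the 6 alternative settings of scaling, pseudocount and minimum level. As deposited, with no scaling, the median log2 ratio was -2.81 over the 6 genes, -2.90 over the 19-kDa genes, -2.81 over the 22-kDa genes and -1.71 over the z1B genes. The regulators then had a median of 0.23 and 0 lower, over 5 entries in place of 4 because ohp1 then reached the minimum level. Scaling without zeins at a level of 10 or more gave -3.17 for the 6 genes and -3.17 for the 22-kDa genes. A pseudocount of 5 gave -3.22 for the 22-kDa genes, -1.93 for the z1B genes and 1 higher gene of endoplasmic reticulum folding in place of 2.

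The 19-kDa to 22-kDa ratio depended on how a class was summarised. In the wild type and the dek40 library it was 0.768 and 0.703 by the geometric mean and 1.03 and 1.03 by the median level. It was 1.11 and 1.09 without AF546188.1_FG005, and 11.1 and 11.2 without GRMZM2G044625. With the classes taken from the deposited descriptions (5 and 4 genes) it was 1.49 and 1.196. Those classes add z1A and other z1C genes and leave out AF546188.1_FG005 and GRMZM2G044152. The log2 change of the ratio, 0.01 as summed, was -0.13 by the geometric mean, -0.00968 by the median level, -0.0229 without AF546188.1_FG005 and -0.31 by the descriptions. As a share of the summed zein values rather than of all genes, the 6 genes held 24.9% in the wild type and 19.01% in the dek40 library.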
